A study of Mus musculus with 27 samples.

Results

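The miR-15/16 family is a group of microRNAs (miRNAs) whose guide strands begin with the same seed. It was followed through 3 subcellular fractions of 3 kinds of mouse cells. Members were taken by name alone from the deposited small RNA table: miR-15a, miR-15b, miR-16, miR-195a, miR-322 and miR-497a, with every hairpin and mature arm entry of each. They came to 11 of the 1013 entries of the table, 483 of which were miRNA entries. Of the 11, 7 were 5p arms, 2 were 3p arms and 2 were hairpins. The names miR-195b and miR-497b were searched for as well and were not analysed here. A filter of at least 1 RPM in at least 3 libraries kept 9 of the 11 entries for testing. The 2 others were mmu-mir-16-2, above 0 in 2 libraries, and mmu-miR-15a-3p, at 26.99 RPM in 1 mNPC cytoplasm library. RPM, the deposited unit, is a read count scaled to a common library total.

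The cells were mouse embryonic stem cells of the E14 line, kept in LIF (mESC), a neural progenitor line made in the depositing laboratory and kept in EGF and FGF (mNPC), and primary cortical neurons after 5 days in culture (mCtx). No group carried an engineered allele or drug according to the labels. Each was separated into chromatin, soluble nucleoplasm and cytoplasm, with 3 libraries for each of the 9 groups and 27 in all. The labels call the 3 libraries biological replicates without naming separate cultures, so a p-value here weighs a difference against the spread among libraries, which may be technical. The mESC and mNPC cells are 1 line each, and a primary culture can hold other brain cells beside neurons.

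miRNAs are cut from hairpin precursors, and 1 arm of the hairpin usually enters an Argonaute protein and guides it to messenger RNAs that match its seed, bases 2 to 8. The miR-15/16 family is known for restraining the cell cycle and cell survival through targets such as cyclin D1, cyclin E1 and Bcl2. Mir15a and Mir16-1 lie in the host gene Dleu2, whose human locus is often deleted in chronic lymphocytic leukaemia. miR-322, the rodent counterpart of human miR-424, is made from an X-linked cluster with miR-503 and miR-351, and miR-195 and miR-497 share a primary transcript and are known for promoting cell cycle exit in heart and skeletal muscle.

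The mature sequences are shown because they define the family. They are printed 5′ to 3′ with the seed in capitals, as RefSeq gives them for GRCm38.p6.
miR-16-5p: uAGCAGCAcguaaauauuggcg
miR-15a-5p: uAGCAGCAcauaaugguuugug
miR-15b-5p: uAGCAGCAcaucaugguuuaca
miR-195a-5p: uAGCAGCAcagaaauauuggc
miR-497a-5p: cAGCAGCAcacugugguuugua
miR-322-5p: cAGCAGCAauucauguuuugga
All 6 of the 6 5p names carried the seed AGCAGCA. Beyond it they diverged. Compared position by position with miR-16-5p, miR-195a-5p shared 19 of 21 bases, miR-15a-5p 16 of 22, miR-15b-5p 14 of 22, miR-322-5p 12 of 22 and miR-497a-5p 11 of 22. The other arm of miR-322, measured here as its own entry, has a different seed.
miR-322-3p: aAACAUGAagcgcugcaacac

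miR-16-5p is made from 2 loci. Their hairpins are shown because the miR-16 entries of 1 group were listed under the hairpin name only. The mature 5p arm is in capitals, and it is the same in both.
mir-16-1: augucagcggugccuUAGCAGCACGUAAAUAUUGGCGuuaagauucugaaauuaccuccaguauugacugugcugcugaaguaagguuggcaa
mir-16-2: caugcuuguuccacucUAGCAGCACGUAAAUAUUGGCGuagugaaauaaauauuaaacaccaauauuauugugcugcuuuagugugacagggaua
In GRCm38, mir-16-1 lies on the minus strand at chr14:61631880-61631972 and miR-15a-5p at chr14:61632075-61632096, both in an intron of Dleu2 and on its strand. mir-16-2 lies on the plus strand at chr3:69009902-69009996 and miR-15b-5p at chr3:69009775-69009796, both in an intron of Smc4, a condensin subunit gene, and on its strand. miR-322-5p (chrX:53054306-53054327) and miR-322-3p (chrX:53054269-53054289) are on the minus strand. miR-195a-5p (chr11:70235062-70235082) and miR-497a-5p (chr11:70234730-70234751) are on the plus strand, and miR-497a-5p overlaps the annotated Mir497b on the opposite strand.

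The composition of the libraries differed between fractions. miRNA entries held 24.7 to 30.4% of the listed RPM in mESC chromatin, against 78.7 to 81.9% in mESC nucleoplasm and 78.3 to 86.9% in mESC cytoplasm. They held 53.6 to 71.9% in mNPC chromatin, against 94.2 to 95.8% in the other mNPC libraries. In mCtx they held 73.3 to 75.7% in chromatin, against 95.8 to 96.2% in nucleoplasm and 87.9 to 89.2% in cytoplasm. snoRNA, small RNA of the nucleolus, held 45.4 to 54.3%, 23.3 to 40.5% and 20.6 to 23.2% of the chromatin libraries of mESC, mNPC and mCtx, and at most 0.550% of any cytoplasm library. The lowest value above 0 in a library ran between 5.16 and 59.1 RPM, and the read total behind it is not given in the sources used here. Replicate 1 of mCtx cytoplasm stood apart, with r = 0.864 and 0.865 on log2(RPM + 1) against the other libraries of its group, which correlated at 0.969. Some results that use it are given with and without it, and the others with it only. For the labels, the stem cell list (8 of 10 miRNAs listed, the miR-290 to miR-295 and miR-302 to miR-367 groups) summed to between 19861 and 93870 RPM in mESC libraries and to 0 in every mNPC and mCtx library. The neuron list (5 of 5 listed, miR-124 among them) summed to between 52.0 and 512 RPM in mESC, 275 and 1027 RPM in mNPC, and 9974 and 25296 RPM in mCtx.

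**Figure D1:**
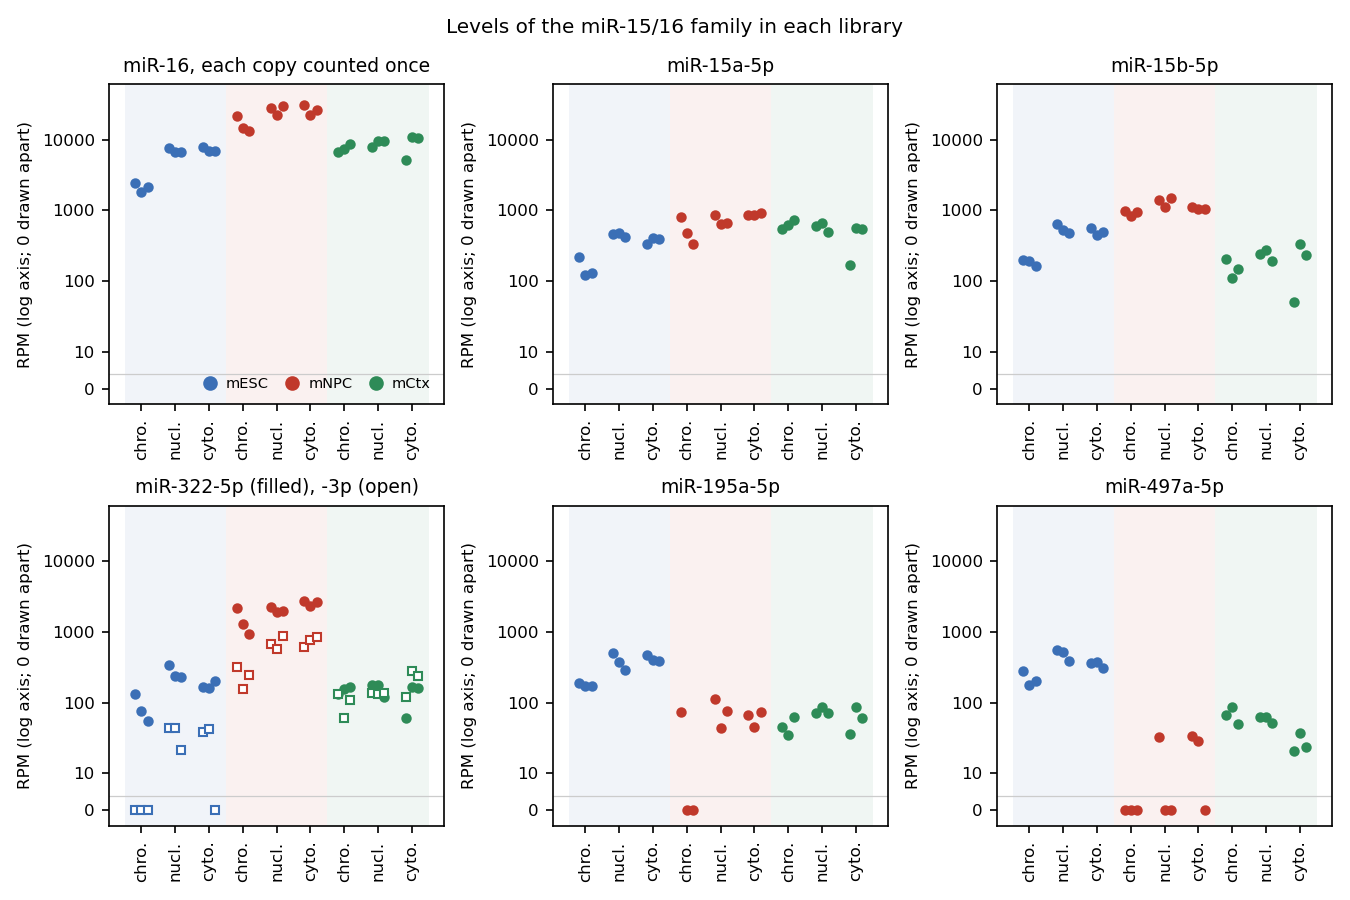
RPM (log axis, 0 drawn apart) of each family miRNA in every library, 1 point a library, grouped by cell type (colour) and fraction (chromatin, nucleoplasm, cytoplasm). miR-16 reached 30605.8 RPM in mNPC, miR-322-5p was highest in mNPC, and miR-195a-5p and miR-497a-5p were highest in mESC.

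miR-16 was the most abundant member in every library, and its level was highest in neural progenitors. In mESC, mmu-miR-16-5p of the chromosome 14 entry had 2397.5, 1820.7 and 2153.5 RPM in chromatin, 7698.3, 6717.4 and 6559.6 RPM in nucleoplasm, and 7951.1, 6823.5 and 6797.2 RPM in cytoplasm. The mESC chromatin libraries were the 3 lowest of all 24 libraries in which the arm was listed above 0. In mNPC, the same entry had 27505.9, 22243.9 and 29804.4 RPM in nucleoplasm and 30539.5, 22403.9 and 25944.5 RPM in cytoplasm, and was listed at 0 in the 3 chromatin libraries. The mCtx libraries had 6740.3, 7381.4 and 8651.9 RPM in chromatin, 7896.0, 9556.9 and 9413.9 RPM in nucleoplasm, and 5134.5, 11035.7 and 10500.0 RPM in cytoplasm. Replicate 1 of mCtx cytoplasm was the lowest of the mCtx libraries, and the 3 mCtx fractions overlapped.

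In mNPC chromatin miR-16 was listed under its hairpin names. The hairpin entry mmu-mir-16-1 had 21218.7, 14448.7 and 13248.6 RPM in those 3 libraries and 0 in the other 24. mmu-mir-16-2 had 0, 14425.1 and 13254.5 RPM there and 0 elsewhere. No library of the 27 had both a hairpin and an arm entry of miR-16 above 0. The entries of the 2 loci were near copies of each other: the miR-16-5p entries on chromosomes 14 and 3 differed by 0.00762 to 1.53% (median 0.0794%) in the 24 libraries, and the 2 hairpin entries by 0.0445 and 0.163% where both were above 0. The table cannot tell from which locus the RNA came. How reads were assigned to hairpin or arm entries is not given in the sources used here. The hairpin mmu-mir-16-1 passed the filter only through mNPC chromatin, so its own test is not reported. Comparisons of miR-16 below use the sum of its hairpin, locus and arm entries, and, where it matters, a level in which each locus is counted once, since mNPC chromatin replicate 1 had only 1 of the 2 hairpins listed.

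**Figure D2:**
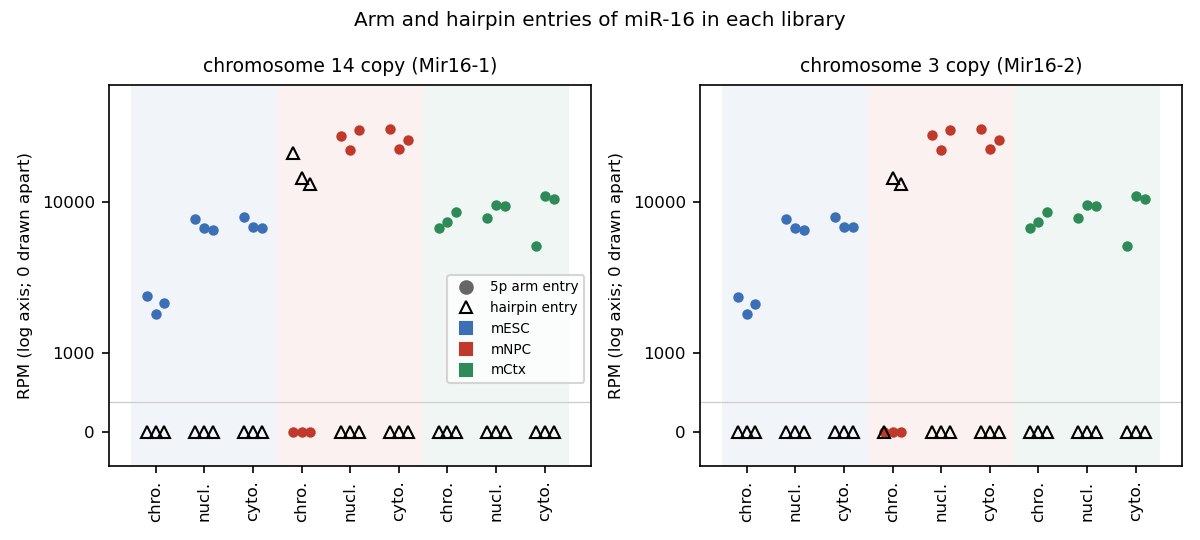
RPM (log axis, 0 drawn apart) of the 5p arm entry (filled circles) and the hairpin entry (open triangles) of miR-16 in every library, for the chromosome 14 copy on the left and the chromosome 3 copy on the right. In mNPC chromatin the arm is at 0 and the hairpin at 13248.6 to 21218.7 RPM on chromosome 14. In the other 24 libraries the hairpin is at 0.

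With its entries summed, miR-16 was higher in mNPC than in mESC in all 3 fractions. The limma fit on log2(RPM + 1), with p-values adjusted by Benjamini-Hochberg over all rows of the table, gave differences of 2.59 in chromatin (SE 0.22, adjusted p = 2.05e-09), 1.92 in nucleoplasm (SE 0.22, adjusted p = 2.08e-07) and 1.86 in cytoplasm (SE 0.22, adjusted p = 3.35e-07). Of all 713 rows of the summed table, 48.5%, 48.7% and 39.4% were called in these comparisons at an adjusted p under 0.05. No mNPC library overlapped a mESC library of the same fraction. On the scale of miRNA values alone, with each locus of miR-16 counted once, the differences were 1.56, 1.54 and 1.49. Each was past the threshold (limma adjusted p = 1.32e-06, 1.54e-06 and 2.52e-06). The total of that scale, here and below, counted every locus of every miRNA. With each locus counted once in the total as well, miR-16 held 4.10, 4.12 and 3.95% of miRNA values in mNPC chromatin, nucleoplasm and cytoplasm. In mESC it held 1.05, 1.05 and 1.08%, and these shares were not tested.

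In mCtx, miR-16 was lower than in mNPC in all 3 fractions, by log2 differences of -0.75 in chromatin (SE 0.22, limma adjusted p = 0.0114), -1.56 in nucleoplasm (adjusted p = 6.82e-06) and -1.63 in cytoplasm (adjusted p = 3.50e-06), where 29.2%, 32.7% and 30.6% of rows were called. The chromatin difference was -1.08 (SE 0.23, adjusted p = 0.000939) with each locus counted once. It lost its call without mCtx chromatin replicate 1 (-0.66, adjusted p = 0.0502) or without mNPC chromatin replicate 2 (-0.65, adjusted p = 0.0549). Against mESC, mCtx was higher in chromatin by 1.85 (SE 0.22, limma adjusted p = 3.39e-07), in a comparison with 54.7% of rows called. In nucleoplasm it differed from mESC by 0.35 (adjusted p = 0.187) and in cytoplasm by 0.23 (adjusted p = 0.524), where 50.9% and 42.5% of rows were called. Without mCtx cytoplasm replicate 1 these were 0.35 (limma adjusted p = 0.0485) and 0.58 (adjusted p = 0.00635), both past the threshold. The nucleoplasm comparison does not hold that library. Its value stayed at 0.35, and the library enters it only through the spread pooled over all groups. On the miRNA scale with each locus of miR-16 counted once, the 3 differences between mCtx and mESC were 0.29, -0.030 and -0.072, none past the threshold. These values depend on the total, which counted every locus. With each locus counted once there too, miR-16 held 1.83, 1.48 and 1.54% of miRNA values in mCtx chromatin, nucleoplasm and cytoplasm. In mESC it held 1.05, 1.05 and 1.08%, and these shares were not tested. The miRNA share itself was 73.3 to 75.7% in mCtx chromatin, against 24.7 to 30.4% in mESC chromatin.

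Within a cell type, miR-16 was lower in chromatin than in cytoplasm in mESC and mNPC. The summed difference was -1.77 in mESC (SE 0.22, limma adjusted p = 4.84e-07) and -1.04 in mNPC (SE 0.22, adjusted p = 0.000532), with 57.6% and 41.5% of rows called. Counting each locus once gave -0.71 in mNPC (SE 0.23, adjusted p = 0.0161). In mCtx it was -0.16 (SE 0.22, adjusted p = 0.683), with 45.7% of rows called, and -0.51 (adjusted p = 0.0130) without mCtx cytoplasm replicate 1. Chromatin against nucleoplasm gave -1.73 in mESC (adjusted p = 1.17e-06, 52.9% called), -1.06 in mNPC (adjusted p = 0.000596, 31.4% called) and -0.24 in mCtx (adjusted p = 0.520, 32.5% called). Nucleoplasm against cytoplasm gave -0.04, 0.01 and 0.09 in the 3 cell types (SE 0.22, adjusted p = 1 in each), with 20.2% of rows called in mESC, 16% in mNPC and 28.8% in mCtx.

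These chromatin differences did not pass on the scale of miRNA values. With each locus counted once, mESC chromatin and cytoplasm differed there by -0.038, those of mNPC by 0.034 and those of mCtx by 0.33 (SE 0.21, limma adjusted p = 1, 1 and 0.334). The difference between cell types was tested as an interaction. On summed RPM, chromatin against cytoplasm was higher in mCtx than in mESC by 1.62 (SE 0.30, adjusted p = 0.000271), where 43.5% of rows were called. It was higher in mCtx than in mNPC by 0.89 (SE 0.30, adjusted p = 0.0533, 15.4% called) and in mNPC than in mESC by 0.73 (SE 0.30, adjusted p = 0.0771, 29.9% called). With each locus counted once the mNPC to mESC interaction was 1.05 (SE 0.32, adjusted p = 0.0181). On the miRNA scale the 3 interactions were 0.36 for mCtx against mESC, 0.29 for mCtx against mNPC and 0.07 for mNPC against mESC, none past the threshold (adjusted p = 0.403, 0.668 and 1).

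**Figure D3:**
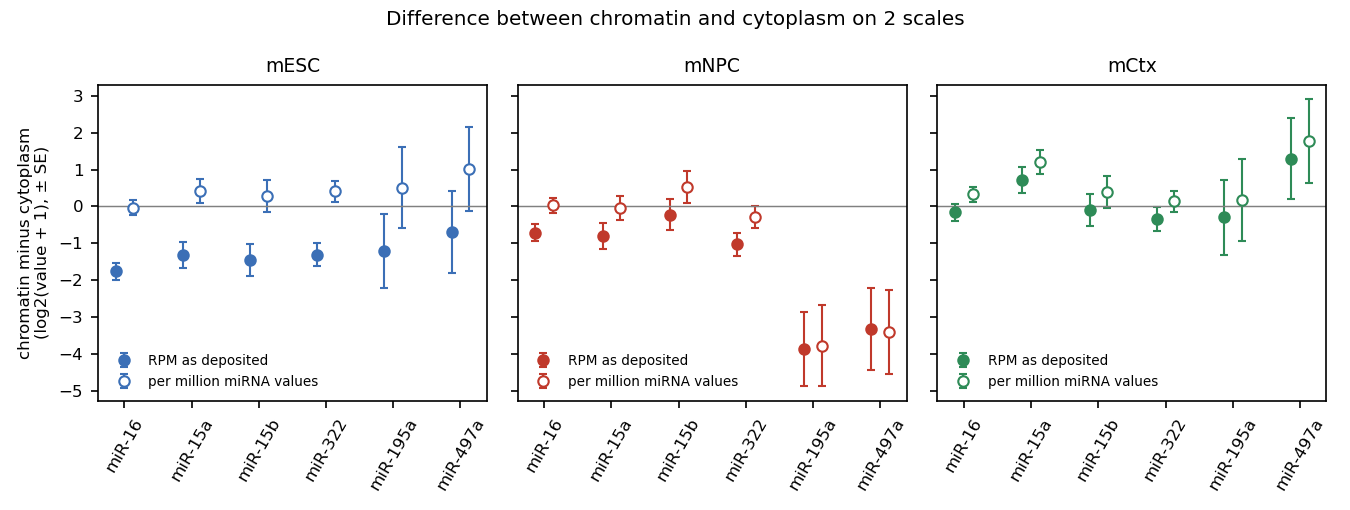
Difference between chromatin and cytoplasm (log2(value + 1), bars ± SE of the fit) for the 6 family miRNAs in mESC, mNPC and mCtx, each locus counted once, on RPM as deposited (filled) and rescaled to miRNA values alone (open). The total used for rescaling counted every locus. In mESC the filled points lie at -1.77 for miR-16 and -1.45 for miR-15b, and the open ones at -0.038 and 0.27. For miR-195a and miR-497a in mNPC, 2 and 3 chromatin libraries were at 0.

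The other members were tested as 6 single-locus arm entries, 5 of them 5p arms and 1 the miR-322-3p arm. In mESC chromatin against cytoplasm, 4 of the 6 were called, all lower, and their median log2 difference was -1.26. Of all 851 entries tested, 54.4% were called in that comparison and 29.5% were called lower. Among miRNA entries alone, 46.7% were called lower, and the median of all miRNA entries was -1.59. In mESC chromatin against nucleoplasm, 4 of 6 were called lower as well (median -1.57), against 50.8% of entries called and 30.9% called lower. Among miRNA entries there, 51.4% were called lower, and the median of all miRNA entries was -1.70. Called entries numbered 2 of 6 in mNPC chromatin against cytoplasm (38.8% of entries called), 1 of 6 in mNPC chromatin against nucleoplasm (27.8%), and 0 of 6 in mCtx chromatin against cytoplasm (44.1%) and against nucleoplasm (32.1%). Nucleoplasm against cytoplasm gave 0 of 6 in mESC (19.2%), mNPC (15.5%) and mCtx (25.3%).

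mmu-miR-15a-5p, the neighbour of miR-16 in Dleu2, had 220.1, 122.0 and 131.5 RPM in mESC chromatin, 469.1, 482.9 and 417.0 RPM in mESC nucleoplasm, and 338.9, 411.7 and 390.4 RPM in mESC cytoplasm. Chromatin was below both other fractions with no overlap, by -1.31 against cytoplasm (SE 0.36, limma adjusted p = 0.00376) and -1.57 against nucleoplasm (adjusted p = 0.000977). In mNPC it had 812.0, 475.0 and 336.7 RPM in chromatin, 849.1, 646.1 and 657.8 RPM in nucleoplasm, and 847.9, 850.0 and 913.9 RPM in cytoplasm. The neurons had 540.8, 615.4 and 723.1 RPM in chromatin, 598.8, 670.5 and 490.8 RPM in nucleoplasm, and 171.1, 561.5 and 551.7 RPM in cytoplasm. In cytoplasm every mCtx library was below every mNPC library, while the chromatin and nucleoplasm libraries of the 2 cell types overlapped, and replicate 1 of mCtx cytoplasm was far below the other mCtx libraries.

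mmu-miR-15a-5p was higher in mNPC than in mESC by 1.73 in chromatin (SE 0.36, limma adjusted p = 0.000395) and by 1.20 in cytoplasm (adjusted p = 0.00905), and differed by 0.64 in nucleoplasm (adjusted p = 0.155). In mCtx chromatin it was higher than in mESC chromatin by 2.02 (adjusted p = 6.07e-05). Scaled to miRNA values, with every locus in the total, these chromatin differences were 0.37 and 0.48 and did not pass. The mNPC to mESC cytoplasm difference on that scale was 0.84 (limma adjusted p = 0.0326). With each locus counted once in the total, miR-15a held 0.0773% of miRNA values in mESC chromatin, 0.133% in mNPC chromatin and 0.151% in mCtx chromatin. These shares were not tested. mCtx against mNPC gave -1.21 in cytoplasm (adjusted p = 0.0114), which became -0.64 (adjusted p = 0.0940) without mCtx cytoplasm replicate 1. Within mCtx, chromatin against cytoplasm was 0.73 (limma adjusted p = 0.113) on RPM and 1.21 (SE 0.33, adjusted p = 0.00970) on the miRNA scale, past the threshold. The latter fit was not repeated without mCtx cytoplasm replicate 1, which had 171.1 RPM, against 551.7 and 561.5 RPM in its group. Shares of miRNA values were 0.136 to 0.172% in mCtx chromatin and 0.0296 to 0.0983% in mCtx cytoplasm.

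mmu-miR-15b-5p, the neighbour of the other miR-16 locus in Smc4, was highest in progenitors. It had 196.2, 189.8 and 164.4 RPM in mESC chromatin, 647.9, 523.6 and 478.0 RPM in mESC nucleoplasm, and 570.3, 445.7 and 494.3 RPM in mESC cytoplasm. In mNPC it had 990.6, 832.5 and 945.1 RPM in chromatin, 1400.6, 1122.1 and 1501.2 RPM in nucleoplasm, and 1111.1, 1047.7 and 1060.1 RPM in cytoplasm. Neurons had 207.8, 109.0 and 148.1 RPM in chromatin, 241.7, 271.8 and 193.5 RPM in nucleoplasm, and 50.3, 337.998 and 236.8 RPM in cytoplasm. Every mNPC library was above every mESC and every mCtx library.

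mCtx was lower than mNPC in mmu-miR-15b-5p by -2.61 in chromatin (SE 0.43, limma adjusted p = 5.55e-05), -2.51 in nucleoplasm (adjusted p = 7.89e-05) and -2.74 in cytoplasm (adjusted p = 2.70e-05), and the last was -1.92 (adjusted p = 1.24e-06) without mCtx cytoplasm replicate 1. On the miRNA scale the 3 were -2.80, -2.51 and -2.67, all past the threshold. mNPC was higher than mESC by 2.32 in chromatin (adjusted p = 0.00011), 1.29 in nucleoplasm (adjusted p = 0.0162) and 1.10 in cytoplasm (adjusted p = 0.0452). The nucleoplasm call was lost without mESC nucleoplasm replicate 3 (1.19, adjusted p = 0.0522) or mNPC nucleoplasm replicate 3 (1.20, adjusted p = 0.0519), and the cytoplasm call on leaving out any 1 of 20 of the 27 libraries (1.01 to 1.19). On the miRNA scale, whose total counted every locus, the differences in chromatin, nucleoplasm and cytoplasm were 0.97, 0.91 and 0.72 and none of them passed. With each locus counted once in the total, miR-15b held 0.238, 0.208 and 0.161% of miRNA values in these fractions of mNPC. In mESC it held 0.0917, 0.0823 and 0.0751%, and these shares were not tested. Against mESC, mCtx differed by -0.29 in chromatin (adjusted p = 0.693), where the groups overlapped, and was lower by -1.22 in nucleoplasm (adjusted p = 0.0214) and -1.64 in cytoplasm (adjusted p = 0.00322), and without mCtx cytoplasm replicate 1 the cytoplasm comparison gave -0.82 (adjusted p = 0.00608). The nucleoplasm difference lost its call without mCtx nucleoplasm replicate 3 (-1.09, adjusted p = 0.0739) or mESC nucleoplasm replicate 1 (-1.10, adjusted p = 0.0663), and the value was 0.049 (adjusted p = 1) with libraries centred. Scaled to miRNA values, mCtx was lower than mESC in all 3 fractions, by -1.83, -1.603 and -1.95 (adjusted p = 0.00108, 0.00312 and 0.000639). In mESC, chromatin was below cytoplasm by -1.45 (adjusted p = 0.00653).

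miR-322 separated the progenitors from the other cells more than any other member did on the log2 scale among entries above 0 everywhere. mmu-miR-322-5p had 132.4, 76.8 and 54.8 RPM in mESC chromatin, 338.9, 236.0 and 232.1 RPM in mESC nucleoplasm, and 168.1, 161.3 and 204.6 RPM in mESC cytoplasm. In mNPC it had 2172.9, 1288.7 and 921.4 RPM in chromatin, 2243.5, 1880.4 and 1979.4 RPM in nucleoplasm, and 2681.0, 2347.2 and 2640.1 RPM in cytoplasm. mCtx libraries had 130.3, 155.2 and 165.7 RPM in chromatin, 175.2, 179.6 and 121.3 RPM in nucleoplasm, and 59.6, 167.6 and 160.4 RPM in cytoplasm. The lowest mNPC library, at 921.4 RPM, was above the highest library of either other cell type, at 338.9 RPM.

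mNPC was higher than mESC in mmu-miR-322-5p by 4.04 in chromatin (SE 0.36, limma adjusted p = 6.11e-09), 2.93 in nucleoplasm (adjusted p = 7.79e-07) and 3.84 in cytoplasm (adjusted p = 1.46e-08). mCtx was lower than mNPC by -3.19 (adjusted p = 4.13e-07), -3.69 (adjusted p = 4.89e-08) and -4.43 (adjusted p = 2.86e-09) in the same order of fractions. With both arms summed and scaled to miRNA values, mNPC remained above mESC by 2.93, 2.80 and 3.62 and mCtx below mNPC by -2.87, -3.22 and -3.29, all past the threshold. mCtx and mESC differed in miR-322-5p by 0.85, -0.76 and -0.59, none of which passed (adjusted p = 0.0543, 0.0879 and 0.216). Within mESC, chromatin was below cytoplasm by -1.09 (adjusted p = 0.0137), a call lost without mESC chromatin replicate 3 (-0.81, adjusted p = 0.0912) or mESC cytoplasm replicate 3 (-0.99, adjusted p = 0.0503). The chromatin difference in mNPC was -0.90 (adjusted p = 0.0573).

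mmu-miR-322-3p, the partner arm, was at 0 in the 3 mESC chromatin libraries and in mESC cytoplasm replicate 3, and between 21.6 and 43.9 RPM in the other 5 mESC libraries. In mNPC it had 315.0, 155.2 and 242.2 RPM in chromatin, 664.3, 571.3 and 860.0 RPM in nucleoplasm, and 609.5, 754.0 and 840.8 RPM in cytoplasm. The mCtx values were 132.3, 61.0 and 108.0 RPM in chromatin, 134.7, 133.2 and 137.8 RPM in nucleoplasm, and 121.1, 276.5 and 235.9 RPM in cytoplasm. Every mNPC library except chromatin replicates 2 and 3 was above every mCtx library, and every mCtx library was above every mESC library. mNPC passed the test against mESC in all 3 fractions, and mCtx against mESC in chromatin (adjusted p = 2.30e-06) and cytoplasm (adjusted p = 0.000724), in part against libraries at 0, so no fold is given. In nucleoplasm, where all libraries were above 0, mNPC was higher than mESC by 4.28 (SE 0.89, limma adjusted p = 0.000378), mCtx was lower than mNPC by -2.34 (adjusted p = 0.0478), and mCtx differed from mESC by 1.94 (adjusted p = 0.0776). The mCtx to mNPC call lay at the threshold and was lost on leaving out any 1 of 24 of the 27 libraries, with values of -2.47 to -2.18.

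The balance of the 2 arms of miR-322, a ratio inside each library that does not depend on its scaling, lay nearer the 3p arm in neurons than in progenitors. The ratio of miR-322-5p to miR-322-3p was 0.985, 2.55 and 1.53 in mCtx chromatin, 1.30, 1.35 and 0.880 in mCtx nucleoplasm, and 0.492, 0.606 and 0.680 in mCtx cytoplasm. It was 6.90, 8.30 and 3.805 in mNPC chromatin, 3.38, 3.29 and 2.30 in mNPC nucleoplasm, and 4.40, 3.11 and 3.14 in mNPC cytoplasm. In mCtx cytoplasm the 3p arm was therefore above the 5p arm in all 3 libraries, replicate 1 included, while the 5p arm was above the 3p arm in all 9 mNPC libraries. The groups did not overlap within any fraction. In mESC it was 7.71, 5.44 and 10.7 in nucleoplasm and 4.36 and 3.79999 in the 2 cytoplasm libraries with the 3p arm above 0, and it was not defined in chromatin.

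Averaged over fractions, the log2 ratio was lower in mCtx than in mNPC by -1.96 (two-sided exact permutation test within fractions, p = 0.00025, the smallest that its 8000 assignments can give, adjusted p = 0.001 over 4 tests). The 3 fractions gave -1.94, -1.35 and -2.58 for chromatin, nucleoplasm and cytoplasm. That test shuffled the libraries of each fraction independently, so it counts same-numbered fractions as separate. If they come from the same culture its p is too small, and the labels do not settle this. Averaged over mNPC and mCtx, chromatin was above cytoplasm by 1.10 (exact permutation test within cell types, 400 assignments, p = 0.010, adjusted p = 0.020), with 0.78 in mNPC and 1.42 in mCtx. Chromatin against nucleoplasm gave 0.73 (adjusted p = 0.0667) and nucleoplasm against cytoplasm 0.36 (adjusted p = 0.170) in the same exact test, where the smallest p possible is 0.005.

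**Figure D4:**
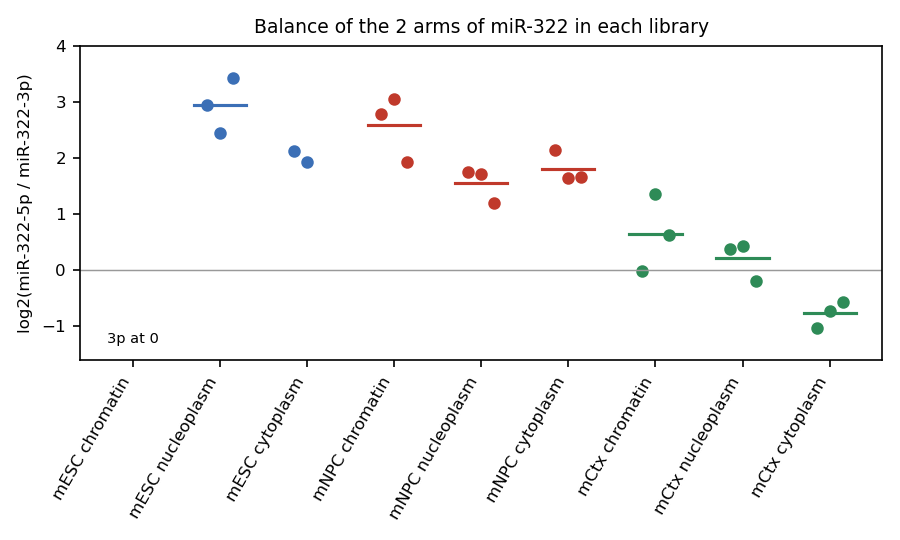
log2 ratio of miR-322-5p to miR-322-3p in each library (points) with the mean of a group of 3 (lines), for the 9 groups. All mNPC points lie above 1.20, and the 3 mCtx cytoplasm points lie between -1.02 and -0.56. mESC chromatin and 1 mESC cytoplasm library are missing because the 3p arm was at 0.

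miR-195a and miR-497a, which share a primary transcript, were highest in stem cells. mmu-miR-195a-5p had 191.4, 173.9 and 169.9 RPM in mESC chromatin, 497.3, 371.7 and 293.1 RPM in mESC nucleoplasm, and 465.6, 400.1 and 384.1 RPM in mESC cytoplasm. In mNPC it had 74.7, 0 and 0 RPM in chromatin, 112.8, 44.2 and 75.4 RPM in nucleoplasm, and 67.5, 45.2 and 73.1 RPM in cytoplasm. In neurons the values were 44.9, 35.1 and 62.8 RPM in chromatin, 70.7, 87.5 and 71.2 RPM in nucleoplasm, and 35.4, 85.7 and 61.3 RPM in cytoplasm. Every mESC library was above every mNPC and mCtx library, and mNPC and mCtx overlapped.

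mmu-miR-497a-5p had 277.6, 176.2 and 202.7 RPM in mESC chromatin, 548.3, 512.8 and 387.5 RPM in mESC nucleoplasm, and 363.7, 377.8 and 308.5 RPM in mESC cytoplasm. In mNPC it was above 0 in 3 of 9 libraries, at 32.8 RPM in 1 nucleoplasm library and at 33.7 and 28.2 RPM in 2 cytoplasm libraries. In mCtx it had 66.1, 86.9 and 50.2 RPM in chromatin, 62.3, 63.5 and 51.6 RPM in nucleoplasm, and 20.5, 37.2 and 23.5 RPM in cytoplasm. The highest library of the other cell types was at 86.9 RPM and the lowest of mESC at 176.2 RPM. The zeros of mNPC sit in libraries whose lowest listed value was between 30.2 and 59.1 RPM, which overlaps the mCtx range of 20.5 to 86.9 RPM.

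The SE of these entries on the log scale was wide (1.01 for miR-195a-5p and 1.11 for miR-497a-5p), and several differences without overlap did not pass. That SE comes from a spread pooled over all 9 groups, not from the groups compared alone. The pool takes in mNPC groups that hold libraries at 0 beside libraries above 0. mNPC was lower than mESC in mmu-miR-195a-5p by -2.75 in cytoplasm (limma adjusted p = 0.0325), in nucleoplasm it differed by -2.37 (adjusted p = 0.0587), and the chromatin comparison passed against 2 libraries at 0. The cytoplasm call was lost on leaving out any 1 of the 6 libraries compared, with values of -2.89 to -2.55 (adjusted p = 0.0530 to 0.0918). In mmu-miR-497a-5p, mNPC passed the test as lower than mESC in every fraction (adjusted p = 5.19e-06, 1.35e-05 and 0.000664 for chromatin, nucleoplasm and cytoplasm), with most mNPC libraries at 0. mCtx was lower than mESC in miR-497a-5p by -2.999 in nucleoplasm (adjusted p = 0.0290) and -3.68 in cytoplasm (adjusted p = 0.00973), and differed by -1.69 in chromatin (adjusted p = 0.233). The nucleoplasm call was lost without any of mCtx nucleoplasm replicates 1, 2 and 3 (-3.04, -3.05 and -2.91) or mESC nucleoplasm replicates 1 and 2 (-2.90 and -2.95), and with libraries centred it was -1.73 (adjusted p = 0.217). In miR-195a-5p mCtx was lower than mESC by -2.84 in cytoplasm (adjusted p = 0.0253), and by -2.50 (adjusted p = 0.0907) without mCtx cytoplasm replicate 1. In the same comparison the call was also lost without mCtx cytoplasm replicate 3 (-2.89) or any 1 mESC cytoplasm library (-2.90 to -2.76). The 2 entries called in mNPC chromatin against cytoplasm were miR-195a-5p and miR-497a-5p, both against chromatin libraries at 0. With every value raised to 59.1 RPM, the highest of the lowest listed values, the first was -0.053 (adjusted p = 1) and the second could not be tested. The miR-497a-5p call was also lost without mNPC chromatin replicate 2 or 3 (adjusted p = 0.0511 and 0.0527) or mNPC cytoplasm replicate 1 or 2 (-2.43 and -2.56). The cell type differences remained past the threshold with values so raised: mNPC against mESC gave -1.47 in chromatin and -2.63 in cytoplasm for miR-195a-5p, and -1.85, -2.99 and -2.54 in chromatin, nucleoplasm and cytoplasm for miR-497a-5p. Scaled to miRNA values, differences that had missed the threshold passed it. mCtx against mESC in chromatin gave -3.24 for miR-497a (adjusted p = 0.0194) and -3.47 for miR-195a (adjusted p = 0.0101). For miR-195a in nucleoplasm, mCtx against mESC gave -2.68 (adjusted p = 0.0382) and mNPC against mESC -2.75 (adjusted p = 0.0343).

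Markers of other cell types were read beside miR-195a and miR-497a. A list of endothelial and mesenchymal miRNAs (4 of 5 listed, miR-126a and miR-145a among those searched) summed to between 949 and 7559 RPM in mESC libraries, against 112 to 345 RPM in mNPC and 2192 to 4037 RPM in mCtx. A blood and microglia list (2 of 5 listed) summed to between 407 and 3914 RPM in mESC, against 0 in every mNPC library and 0 to 44.5 RPM in mCtx. A glia list (2 of 2 listed, miR-219a and miR-338) summed to 0 in every mESC library, 0 to 288 RPM in mNPC and 50.2 to 101 RPM in mCtx. The blood and microglia list was highest in mESC, as were miR-195a and miR-497a, while the endothelial and mesenchymal list was low in mNPC only. Their part in the result was not tested. Less of a miRNA per cell and a smaller share of cells that make it cannot be told apart in these bulk libraries.

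By cell type, the counts over the 6 single-locus entries were as follows. mNPC against mESC gave 4 higher and 2 lower in chromatin (44.9% of all entries called, 15.9% called higher), 3 higher and 1 lower in nucleoplasm (48.6%, with 12.8% higher) and 4 higher and 2 lower in cytoplasm (41.6%, with 14.1% higher). mCtx against mNPC gave 2 lower and 2 higher in chromatin (27.8% called, 11.9% lower), 3 lower and 1 higher in nucleoplasm (33.8%, with 10.3% lower) and 3 lower and 0 higher in cytoplasm (32.3%, with 10.8% lower). The higher ones in chromatin and nucleoplasm were miR-497a-5p in both and miR-195a-5p in chromatin, and all 3 rest on mNPC libraries at 0. mCtx against mESC gave 2 higher in chromatin (52.1% called, 22.8% higher), miR-15a-5p and miR-322-3p. It gave 2 lower in nucleoplasm (52.2%, with 31.3% lower), miR-15b-5p and miR-497a-5p. In cytoplasm (45.5%, with 24.4% lower and 21% higher) it gave 3 lower, the same 2 and miR-195a-5p, and 1 higher, miR-322-3p. Among miRNA entries alone, 25.4, 22.7 and 26.1% were called higher in mNPC than in mESC in chromatin, nucleoplasm and cytoplasm. The share called lower in mCtx than in mNPC was 12, 12 and 17.9%. For mCtx against mESC, 34.9% were called higher in chromatin and 28.7% lower in nucleoplasm. In cytoplasm 27.5% were lower and 33.3% higher. The median over miRNA entries of the log2 difference was 0 between mNPC and mESC in each fraction, and between 0 and 0.31 in the 6 comparisons with mCtx.

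The difference of chromatin against cytoplasm between cell types called 2 of 6 entries in mCtx against mESC (42.4% of entries called), 2 of 6 in mCtx against mNPC (17.3%) and 0 of 6 in mNPC against mESC (30.8%). The entries were miR-15a-5p and miR-322-5p in the first and miR-15a-5p and miR-497a-5p in the second, all with chromatin relatively higher in mCtx. Leaving out mCtx cytoplasm replicate 1 left 1 of these 4 past the threshold, miR-15a-5p between mCtx and mESC at 1.47 (limma adjusted p = 0.00378), against 2.04 (SE 0.51, adjusted p = 0.00309) with it. Scaled to miRNA entries, that difference of mmu-miR-15a-5p was 0.79 (adjusted p = 0.221) and did not pass. The calls between mCtx and mNPC were each lost on leaving out any 1 of 23 of the 27 libraries, with values of 0.94 to 1.85 for miR-15a-5p and 3.74 to 6.30 for miR-497a-5p. The miR-322-5p call was lost in 6 of the 27, with values of 0.96 to 1.78 over all of them.

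The share of the family in the listed miRNA values sets aside the differing miRNA content of the libraries. Here each locus was counted once in the members and in the total. The 6 miRNAs held 1.46 ± 0.12, 1.38 ± 0.095 and 1.35 ± 0.16% of miRNA values in mESC chromatin, nucleoplasm and cytoplasm (SD, n = 3 each). In mNPC the shares were 4.89 ± 0.51, 4.87 ± 0.73 and 4.75 ± 0.66%. In mCtx they were 2.11 ± 0.21, 1.69 ± 0.17 and 1.72 ± 0.66%. The highest mCtx library, at 2.35%, was below the lowest mNPC library, at 4.05%. mCtx cytoplasm replicate 1 was at 0.967%, the lowest of the 27. As a sum over members chosen by name, the share was not tested.

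miR-16 made up 70.2 to 78.3% of the family in mESC chromatin and nucleoplasm libraries, 78.8 to 80.4% in mESC cytoplasm, 81.6 to 85.5% in mNPC and 85.7 to 91.8% in mCtx. The rest of the family was made up differently by cell type. miR-195a and miR-497a each held at most 0.343% of the family in any mNPC library, while in mESC they held 6.10 ± 0.62% and 7.35 ± 0.68% in chromatin, and 4.60 ± 0.11% and 3.87 ± 0.42% in cytoplasm. miR-322 held 8.51 ± 1.16, 8.73 ± 0.56 and 10.5 ± 1.2% of the family in mNPC chromatin, nucleoplasm and cytoplasm, and between 1.90 and 3.88% in every mESC and mCtx library. miR-15b held 6.29 ± 0.97% in mESC chromatin, 4.91 ± 1.08% in mNPC chromatin and 1.81 ± 0.73% in mCtx chromatin (SD, n = 3 each).

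**Figure D5:**
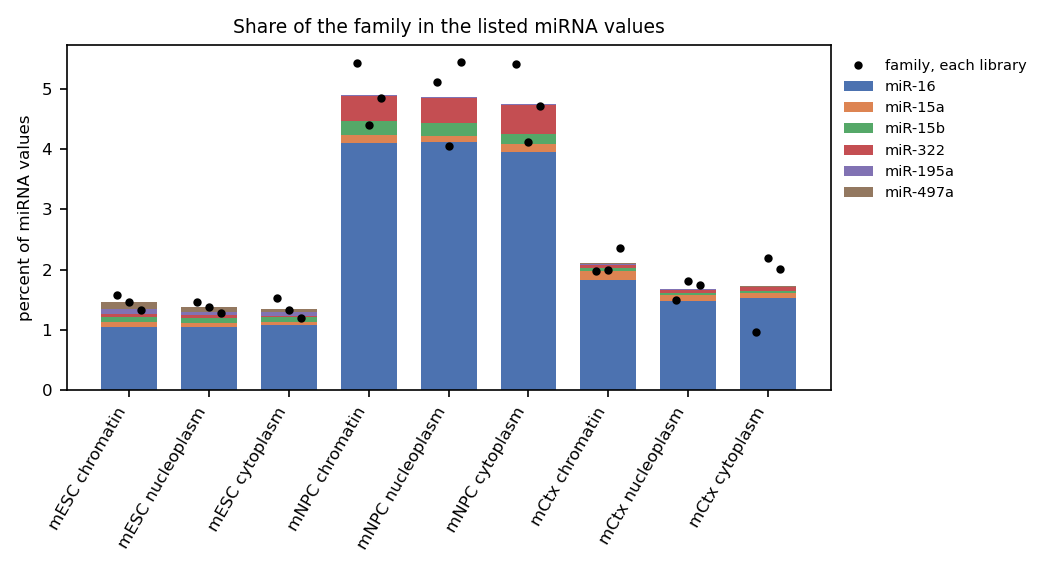
Percent of the listed miRNA values held by the family, each locus counted once: bars are the group mean split by miRNA, and points are the family total of each library. mESC bars stand at 1.35 to 1.46%, mNPC bars at 4.75 to 4.89% and mCtx bars at 1.69 to 2.11%, with mCtx cytoplasm replicate 1 at 0.967%.

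The neighbours of miR-322 in its X-linked cluster were read beside it, as 7 entries of miR-351, miR-503, miR-450a, miR-450b and miR-542. mNPC against mESC called 4 of 7 higher in chromatin, 2 in the nucleoplasm and 3 in the cytoplasm, with 0 lower, where 15.9%, 12.8% and 14.1% of all entries were called higher. mCtx against mNPC called 4, 3 and 4 of 7 lower in the same fractions and 0 higher, where 11.9%, 10.3% and 10.8% of all entries were called lower. Of miRNA entries alone, 25.4, 22.7 and 26.1% were called higher in the first comparison and 12, 12 and 17.9% lower in the second. The counts over the 7 neighbours include the miR-503 hairpin in chromatin and nucleoplasm, which passed the filter on low values only through mNPC and so had to differ. The miR-450a-5p entries passed it mainly through mNPC cytoplasm and were at 0 in every mESC and mCtx cytoplasm library. The cytoplasm counts are therefore not free of this either, and no support is drawn from any of these counts. miR-351-5p had 0 to 171 RPM in mESC libraries. In mNPC it had 3440, 3311 and 2894 RPM in chromatin, 6690, 7794 and 8585 RPM in nucleoplasm and 5630, 6077 and 6657 RPM in cytoplasm. In mCtx libraries it had 82.9 to 273 RPM. It was lower in mCtx than in mNPC by -4.90, -5.20 and -4.69 in the 3 fractions (SE 0.94, limma adjusted p = 0.000358, 0.000159 and 0.000488).

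The hairpin entry of miR-503, which carries a seed 1 base away from that of the family, had 1055.6, 1081.8 and 561.1 RPM in mNPC chromatin, 188.0, 302.6 and 0 RPM in mNPC nucleoplasm, and 40.5, 42.4 and 0 RPM in mNPC cytoplasm. It was at 0 in all 18 other libraries. No mature arm of miR-503 was among the entries. Its mature 5p arm is shown for the change in the seed.
miR-503-5p: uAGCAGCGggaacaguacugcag
Like the miR-16 hairpin entries, it was highest in mNPC chromatin. It passed the filter only through mNPC libraries, so its own test is not reported. miR-450b-5p, another neighbour, averaged 359 ± 72, 408 ± 26 and 605 ± 40 RPM in mNPC chromatin, nucleoplasm and cytoplasm and 97.0 ± 10.9, 354 ± 25 and 346.0 ± 7.9 RPM in mESC (SD, n = 3 each), and was at 0 in all mCtx libraries except 2 of nucleoplasm. It passed between mNPC and mESC in chromatin alone, by 1.86 (SE 0.51, adjusted p = 0.00442).

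miR-103 and miR-107 carry bases 2 to 7 of miR-16-5p at their own positions 1 to 6. Their own seed is in capitals.
miR-103-3p: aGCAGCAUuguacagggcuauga
miR-107-3p: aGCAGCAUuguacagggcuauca
All 3 of their entries were higher in mNPC than in mESC in every fraction and higher in mCtx than in mESC in every fraction. In chromatin, nucleoplasm and cytoplasm, 15.9%, 12.8% and 14.1% of all entries were called higher in mNPC than in mESC, and 22.8%, 20.9% and 21% higher in mCtx than in mESC. Between mCtx and mNPC none of the 3 was called lower in any fraction. The 2 loci of miR-103-3p, which have the same mature sequence, were called higher in cytoplasm by 0.55 and 0.54 (SE 0.17, limma adjusted p = 0.0179 and 0.0177). Values without mCtx cytoplasm replicate 1 are not given for these entries. That library had 6492 RPM at the chromosome 11 locus, against 3685 and 4016 RPM in replicates 2 and 3. miR-107-3p averaged 76.6 ± 28.01, 220 ± 51 and 184 ± 31 RPM in mESC chromatin, nucleoplasm and cytoplasm, 710 ± 129.4, 1185 ± 89 and 890.3 ± 37.5 RPM in mNPC, and 644 ± 21, 1104 ± 119 and 978 ± 158 RPM in mCtx (SD, n = 3 each).

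Patterns across the 9 group means are given as descriptions, since the groups share cells and libraries share scaling. Levels here count each locus of a miRNA once. Among 162 miRNAs above 0 in at least 14 libraries, those most like miR-322 in Pearson r of mean log2(RPM + 1) over the 9 groups were miR-351 (0.994), miR-151 (0.964), miR-16 (0.956), miR-872 (0.942) and miR-92b (0.911). Those most like miR-16 were miR-148b (0.972), miR-351 (0.967), miR-151 (0.965), miR-322 (0.956) and miR-30a (0.955). Within the family, miR-195a and miR-497a had r = 0.865 over the 9 groups, and miR-497a had r = -0.821 with miR-322 and -0.747 with miR-16. miR-16 had r = 0.890 with miR-15a and 0.754 with miR-15b.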

How the data were processed

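Short RNA, under 200 nt and freed of rRNA, was sequenced as single reads from small RNA libraries, per the labels' protocols. The authors deposited one table of RPM values for annotated entries. Which aligner, read assignment and scaling total lie behind it is not stated in what was used here. Coordinates fitted GRCm38, and sequences are RefSeq's (8 of 8 family arm names matched). The filter on low values kept 851 of 1013 entries. They were tested on log2(RPM + 1), on which differences against libraries at 0 depend on the pseudocount, with limma 3.58.1 in R 4.3.3 (9 group means, 18 residual degrees of freedom, trend and robust), Benjamini-Hochberg within each of 21 contrasts and a threshold of 0.05. The fit was checked on simulated data. A second fit summed hairpin, locus and arm entries per miRNA (713 rows). Arm ratios were tested by exact permutation. Alternatives were other scalings, filters and pseudocounts, a common floor, a replicate block and leaving out each library. The miRNA scale divided by the sum of all miRNA entries, with every locus counted. The rule for names took all family entries, miR-322 cluster neighbours, miRNAs sharing bases 2 to 7 of miR-16-5p, and the 5 miRNAs most like miR-16 and miR-322. Members and lists were chosen with earlier results of these data known, and counting each locus once was added after seeing the data. The main fit did not pair libraries by replicate number. Among same-numbered libraries, 8 of 27 pairs of fractions and 0 of 27 pairs of cell types deviated together with r over 0.1. With 3 libraries a group, this cannot show whether same-numbered fractions are paired.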

Additional observations from a re-analysis of the deposited data

Results flagged for a closer look

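The difference of chromatin against cytoplasm differed between cell types for 4 members, each by the interaction term of the limma fit. It was higher in mCtx than in mESC for summed miR-16 by 1.62 (adjusted p = 0.000271), for miR-15a-5p by 2.04 (adjusted p = 0.00309) and for miR-322-5p by 1.45 (adjusted p = 0.0287). It was higher in mCtx than in mNPC for miR-15a-5p by 1.51 (adjusted p = 0.0472) and for miR-497a-5p by 4.63 (adjusted p = 0.0483), the last against mNPC chromatin libraries at 0. Without mCtx cytoplasm replicate 1, the miR-15a-5p and miR-322-5p values became 0.94 (adjusted p = 0.0882, against mNPC) and 0.96 (adjusted p = 0.0837), and that of miR-497a-5p 4.46 (adjusted p = 0.0748). The value of summed miR-16 is given with that library only. More broadly, the calls of miR-15a-5p and miR-497a-5p between mCtx and mNPC were each lost on leaving out any 1 of 23 of the 27 libraries, and that of miR-322-5p in 6. The miRNA share of chromatin libraries lay between 24.7 and 30.4% in mESC, between 53.6 and 71.9% in mNPC, and between 73.3 and 75.7% in mCtx. On the miRNA scale the differences of miR-16 and miR-322-5p between mCtx and mESC were 0.37 (adjusted p = 0.441) and 0.21 (adjusted p = 0.813). Those of mmu-miR-15a-5p were 0.79 (mCtx minus mESC, adjusted p = 0.221) and 1.24 (mCtx minus mNPC, adjusted p = 0.0700). That of mmu-miR-497a-5p was 5.20 (mCtx minus mNPC, adjusted p = 0.0400), the only one of the 5 that passed on this scale, and it rests on mNPC chromatin libraries at 0.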

How the results depend on the processing

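Scaled to miRNA entries alone, chromatin against cytoplasm of summed miR-16 was -0.045 in mESC, -0.30 in mNPC and 0.33 in mCtx, and against nucleoplasm -0.018, -0.32 and 0.31. mCtx against mESC was 0.30, -0.029 and -0.071 in chromatin, nucleoplasm and cytoplasm, and the interactions were -0.25 (mNPC minus mESC) and 0.37 (mCtx minus mESC). With each locus counted once on that scale these were -0.038, 0.034 and 0.33, then -0.013, 0.0075 and 0.31, then 0.29, -0.030 and -0.072, and 0.36 for mCtx minus mESC. In mESC the chromatin to cytoplasm difference turned to 0.41 for miR-15a-5p, 0.27 for miR-15b-5p, 0.62 for miR-322-5p and 0.41 for summed miR-322 on either miRNA scale, and the chromatin to nucleoplasm one to 0.14, 0.14 and 0.030 for the 3 entries. Scaled to entries other than snoRNA, miR-16 gave -0.36 in mNPC and 0.43 in mCtx against cytoplasm, -0.40 and 0.28 against nucleoplasm, and miR-322-5p gave 0.043 in mESC. With libraries centred, miR-16 gave -0.27 (mNPC) and 1.45 (mCtx) for chromatin against cytoplasm, -0.27 and 0.13 against nucleoplasm, -0.0015 and 1.32 for nucleoplasm against cytoplasm, 1.63 for mCtx against mESC in nucleoplasm, 1.72 for the interaction of mCtx minus mNPC, and miR-15b-5p 0.049 for mCtx against mESC in nucleoplasm. Raising all values to the highest library floor turned miR-195a-5p in mCtx against mNPC chromatin to -0.083. A pseudocount of 10 RPM gave 0.89 (adjusted p = 0.0461) for the miR-16 interaction of mCtx minus mNPC. Counting each locus once gave 1.05 for that of mNPC minus mESC.

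Same-numbered libraries deviated together only weakly (r between -0.12 and 0.19), which does not settle whether they are paired. With a replicate block the miR-16 interactions were 0.73 (mNPC minus mESC, adjusted p = 0.0408) and 0.89 (mCtx minus mNPC, adjusted p = 0.0270), both past the threshold, and 47 of 50 called arm results kept their call. Of those 50, 34 kept it on the miRNA scale, 41 without snoRNA, 41 centred, 39 of 47 with the common floor and 43 to 48 on leaving out a library.

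The causes of these moves were not tested. Leaving out each library in turn gave miR-16 0.033 to 0.58 (mCtx against mESC, cytoplasm), 0.30 to 0.44 (nucleoplasm), -0.87 to -0.65 (mCtx against mNPC, chromatin), -0.51 to 0.040 (mCtx chromatin against cytoplasm), -0.27 to 0.28, -0.10 to 0.14 and -0.11 to 0.036 (nucleoplasm against cytoplasm in mCtx, mNPC and mESC), 0.53 to 1.08 and 0.62 to 0.86 (interactions of mCtx minus mNPC and mNPC minus mESC). The miR-322 arm ratio of chromatin against nucleoplasm ranged over 0.56 to 0.90. Entry counts over the whole table moved by more than 1.5 times in 3 comparisons with the common floor (87, 141 and 178, against 163, 215 and 288 in the report's fit) and in 17 on the miRNA scale (23 to 270), where 418 entries were tested.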

Other observations

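Hairpin and arm listings never met in 1 library for some other miRNAs as well. Of 30 hairpin entries in the table, 20 belonged to miRNAs with an arm entry, and for 11 of these 20 hairpin and arm were never above 0 in 1 library. Both counts include mir-16-1 and mir-16-2. Some of the 11 had little room to meet an arm: mir-135b, mir-485 and mir-494 were above 0 in 1 library, and mir-382 and mir-328 in 2. Other hairpins did meet an arm, mir-421 in 6 libraries and mir-21a in 5. In mNPC chromatin, 3 hairpins were above 0 in all 3 libraries while their arms were at 0: mir-16-1, mir-296 and mir-674, named here after their values were seen.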
